A study of Arabidopsis thaliana and Cucumis sativus and Glycine max with 60 samples.

Results

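The 10 genes described here encode chlorophyll-binding antenna proteins of the photosystems and the GOLDEN2-LIKE transcription factors GLK1 and GLK2, measured by RNA sequencing along the root tip of Arabidopsis thaliana. They were chosen by name, with earlier results of these data known. They are 10 of the 33550 Arabidopsis rows in a table of 311875 gene rows. All 10 locus IDs belong to the RefSeq genes of these names, with GLK1 listed there as GPRI1. The series asks how expression changes along the root in several vascular plants and holds 60 samples, of which the 9 Arabidopsis libraries are used. All 9 came from primary roots of the cultivar Columbia, 4 days after plating on agarose-solidified MS medium, and all were kept in constant light. No mutation, transgene or further treatment is named. Each root tip was cut along its axis into the meristematic zone (MZ), where cells divide, the elongation zone (EZ), where they lengthen, and the differentiation zone (DZ) behind it, with 3 libraries each, which the design text calls biological replicates. The sources used here do not give how many roots went into a library or whether zones of the same number came from the same roots. Each zone holds many cell types, so fewer cells of a type and less RNA per cell cannot be told apart.

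Light-harvesting proteins sit in the thylakoid membrane of chloroplasts, bind chlorophyll and carotenoids, and pass absorbed light energy to the reaction centres. The LHCA proteins form the antenna of photosystem I. LHCB2.1 belongs to the mobile trimers of photosystem II, while LHCB4.1 (CP29), LHCB5 (CP26) and LHCB6 (CP24) are the monomeric antennae between those trimers and the core. GLK1 and GLK2 activate antenna and chlorophyll synthesis genes in leaves, and GLK2 is also known to promote the greening of light-grown roots. Roots carry mostly non-green plastids, so these genes are far better known from shoots.

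Each set of zone markers had its highest summed level in the zone it marks. The summed level of the meristem markers PLT1, CYCB1;1 and KNOLLE was 169 to 215 RPKM (reads per kilobase of gene and M mapped reads) in MZ, 6.40 to 33.6 in EZ and 1.61 to 27.5 in DZ. These sums overlapped between EZ and DZ. The elongation markers EXPA11, CESA6 and XTH17 summed to 50.7 to 131 RPKM in MZ, 514 to 862 in EZ and 140 to 193 in DZ. The differentiation markers CASP1, COBL9 and IRX12 summed to 3.07 to 17.9, 37.0 to 352 and 2286 to 4916 RPKM. Limma did not call the single markers COBL9, XTH17 or CESA6 from EZ to DZ. CESA6 was under 2-fold there (-0.85, limma adjusted p = 0.00449). Even so, every DZ library was below every EZ library for all 3 elongation markers. For all 3 differentiation markers every DZ library was above, beside 25.6% of genes above 0 in any library. EZ replicate 3 stood apart. On a line over all tested genes that puts the MZ mean at 0 and the DZ mean at 1, it lay at 0.70, while EZ replicates 1 and 2 lay at 0.365 and 0.371. Of 13 markers of shoot tissues, 6 were listed at 0 in every library, among them the stomatal regulators SPCH, MUTE and FAMA, and only TMM passed 1 RPKM in any. Their summed level was 1.72 to 2.2 RPKM in MZ, 0.348 to 1.47 in EZ and 1.02 to 1.69 in DZ. TMM reached 1 RPKM in every MZ library and in no other zone, so the MZ sums rest in large part on this gene. Read depth, estimated from the steps between low values, was 6.00 to 6.70 M for replicate 1 of each zone and 16.5 to 21.7 M for the other libraries. At those depths 1 read on 1 kilobase is worth 0.149 to 0.167 and 0.0461 to 0.0606 RPKM.

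The 250 bases before the annotated start of each gene were read from the RefSeq genome (build TAIR10.1) for 3 motifs on both strands. These were CCAATC, which is enriched near genes bound by GLK factors and contains the CCAAT box, CACGTG, the G-box bound by light-response factors such as HY5 and the PIFs, and GATAAG, the I-box of light-regulated promoters. CCAATC was in the window of 5 of the 10 genes (LHCA1, LHCA3, LHCA4, LHCB2.1 and LHCB4.1) and in 10.2% of 27443 protein-coding genes. The G-box was in 3 (LHCA4, LHCB4.1 and LHCB6) against 6.49%, and the I-box in 4 (LHCA1, LHCB2.1, LHCB6 and GLK1) against 12.3%. The windows of LHCA2, LHCB5 and GLK2 held none of these letters. Those of LHCA1, LHCB5 and LHCB6 overlap other annotated genes, so they do not lie wholly between genes. Windows of 4 antenna genes that rose in DZ are shown, 3 with CCAATC and 1 without a match, each 5′ to 3′ on the strand of the gene, with motif letters in capitals (GATTGG is CCAATC on the other strand). The LHCA3 window is chr1:22699465-22699714 (plus strand), that of LHCA4 chr3:17495034-17495283 (minus), that of LHCB4.1 chr5:208616-208865 (plus) and that of LHCA2 chr3:22745264-22745513 (plus).
LHCA3: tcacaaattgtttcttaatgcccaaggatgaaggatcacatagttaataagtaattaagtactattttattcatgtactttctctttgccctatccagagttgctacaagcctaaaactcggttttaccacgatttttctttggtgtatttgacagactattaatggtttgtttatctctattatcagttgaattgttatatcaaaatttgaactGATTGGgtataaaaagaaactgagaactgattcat
LHCA4: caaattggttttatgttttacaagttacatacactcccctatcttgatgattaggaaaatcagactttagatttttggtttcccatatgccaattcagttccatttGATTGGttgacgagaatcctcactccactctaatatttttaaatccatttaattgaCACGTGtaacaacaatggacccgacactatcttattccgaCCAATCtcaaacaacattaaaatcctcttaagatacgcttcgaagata
LHCB4.1: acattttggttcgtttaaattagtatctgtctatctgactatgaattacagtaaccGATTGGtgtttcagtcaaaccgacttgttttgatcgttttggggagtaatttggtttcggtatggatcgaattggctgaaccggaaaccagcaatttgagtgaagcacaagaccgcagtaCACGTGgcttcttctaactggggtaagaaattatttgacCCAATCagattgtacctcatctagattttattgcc
LHCA2: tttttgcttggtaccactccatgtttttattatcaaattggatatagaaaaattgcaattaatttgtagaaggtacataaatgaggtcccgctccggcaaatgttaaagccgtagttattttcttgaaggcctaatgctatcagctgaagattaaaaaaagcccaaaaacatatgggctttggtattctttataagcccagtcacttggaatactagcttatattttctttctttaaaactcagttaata
The CCAATC copy nearest the start began 35 bases before it in LHCA3, on the minus strand, 48 in LHCA4 and 35 in LHCB4.1. LHCA4 and LHCB4.1 shared an arrangement, with a G-box beginning 88 and 74 bases before the start and a further CCAATC on the minus strand beginning 144 and 194 bases before it. A match is a description of the letters and shows no binding.

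Genes of the photosystem I antenna were transcribed in the root, and the 4 among the 10 genes were all higher in DZ than in EZ. LHCA4 (AT3G47470, chr3:17493343-17495033, minus strand) had the highest level of the 10 genes by mean RPKM in MZ and in DZ. Its levels were 32.4, 18.7 and 18.7 RPKM in MZ replicates 1 to 3, 11.6, 3.77 and 10.7 in EZ, and 34.9, 38.2 and 26.8 in DZ. Every EZ library lay below every MZ and DZ library, and MZ and DZ overlapped. LHCA4 fell from MZ to EZ by 1.4 ± 0.38 on the log2(RPKM + 1) scale (standard error, limma adjusted p = 0.0138) and rose from EZ to DZ by 1.94 ± 0.38 (adjusted p = 0.00336). The fall was not called without MZ replicate 1 (adjusted p = 0.0551) or without EZ replicate 2, where it was under 2-fold (log2 change -0.95). A gene on the other strand, AT3G47460, shares 53 bases with LHCA4. It stood at 9.33 to 10.8 RPKM in MZ and 0.922 to 2.27 in DZ, and its part in the LHCA4 values was not tested, since the sources used here do not say whether strand was kept.

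LHCA1 (AT3G54890, chr3:20339504-20341176, minus strand) had the same shape at a lower level. It stood at 3.95, 2.83 and 2.23 RPKM in MZ, 0.627, 1.14 and 1.42 in EZ, and 4.42, 5.94 and 3.64 in DZ. All EZ libraries lay below all others, while MZ and DZ overlapped. The step from EZ to DZ was a rise of 1.46 ± 0.26 (log2, adjusted p = 0.00186). The step from MZ to EZ had an adjusted p of 0.0128 but, at -0.96 ± 0.26, stayed just under the 2-fold limit for a call. Without EZ replicate 3 it passed that limit (log2 change -1.08, adjusted p = 0.0116).

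LHCA3 (AT1G61520, chr1:22699715-22701412, plus strand) and LHCA2 (AT3G61470, chr3:22745514-22747444, plus strand) were low until DZ. LHCA3 measured 2.52, 2.1 and 2.72 RPKM in MZ, 1.47, 1.52 and 3.46 in EZ, and 12.5, 24.7 and 18.1 in DZ. MZ and EZ overlapped, and every DZ library was above both. The mean was 2.15 ± 1.14 RPKM in EZ and 18.5 ± 6.10 RPKM in DZ (SD, n = 3), a log2 rise of 2.63 ± 0.31 (adjusted p = 0.000306). LHCA2 was nearly silent outside DZ, with 0.122, 0.108 and 0.698 RPKM in MZ, 0.233, 0.0422 and 0.0814 in EZ, and 4.42, 7.08 and 2.60 in DZ. The values step in whole reads, which came to 1, 3 and 15 reads in MZ, 2, 1 and 2 in EZ, and 34, 176 and 55 in DZ. The 15 reads of MZ replicate 3 stood above the other MZ libraries. The same library had 9.96 RPKM of RBCS1A, the small subunit of the carbon-fixing enzyme Rubisco, against 0.949 and 0.319 in MZ replicates 1 and 2, and the part of such RNA in LHCA2 was not tested. The rise of LHCA2 from EZ to DZ was 2.28 ± 0.30 (log2, adjusted p = 0.000506), and it passed the filter on low values through the DZ libraries alone.

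**Figure D1:**
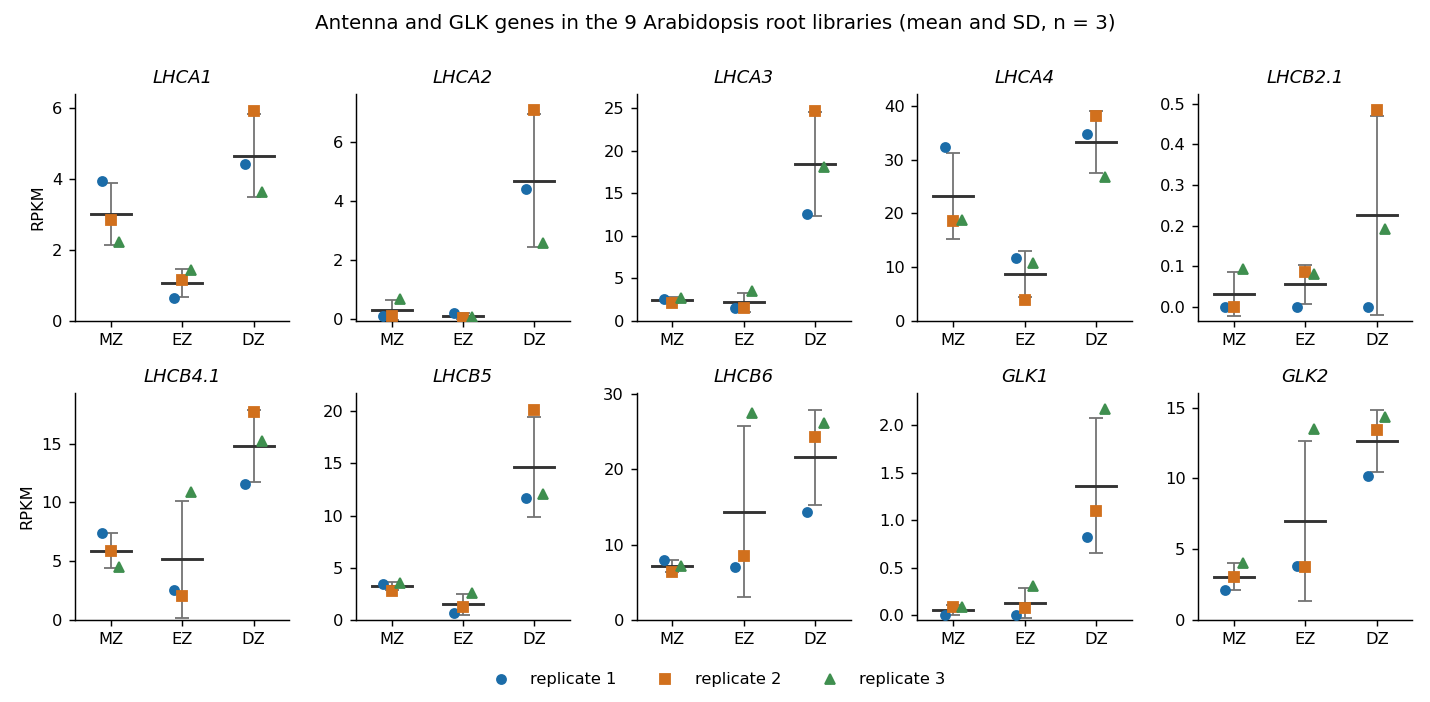
RPKM of the 10 genes (1 panel each, own linear scale) in the 3 libraries of each zone, with points marked by replicate number, wide bars at the mean and whiskers of 1 SD (n = 3). LHCA1, LHCA4 and LHCB5 dip in EZ, LHCA2, LHCA3 and GLK1 are high in DZ alone, and LHCB4.1, LHCB6 and GLK2 are high in EZ replicate 3 (10.9, 27.5 and 13.5 RPKM).

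In the monomeric antennae of photosystem II, EZ lay below MZ in all libraries for LHCB5 and overlapped MZ for LHCB4.1 and LHCB6. Whether the genes differ from each other in this step was not tested. When EZ replicate 3 was left out, LHCB5 and LHCB4.1 were both called lower in EZ than in MZ. LHCB5 (AT4G10340, chr4:6408007-6409849, plus strand) stood at 3.41, 2.78 and 3.56 RPKM in MZ, 0.629, 1.25 and 2.56 in EZ, and 11.7, 20.1 and 12.1 in DZ. The zones did not overlap, with EZ lowest and DZ highest. Its rise from EZ to DZ, 2.69 ± 0.32 on the log2 scale, was the largest of the 8 tested genes (adjusted p = 0.000329). The difference between EZ and MZ, -0.85 ± 0.32, was not called (adjusted p = 0.0501), but without EZ replicate 3 it was (-1.15, adjusted p = 0.0105).

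LHCB4.1 (AT5G01530, chr5:208866-210548, plus strand) measured 7.38, 5.87 and 4.46 RPKM in MZ, 2.58, 2.02 and 10.9 in EZ, and 11.5, 17.7 and 15.2 in DZ. EZ replicate 3 was above all MZ libraries and just below DZ, while EZ replicates 1 and 2 were below all MZ libraries. The rise from EZ to DZ was 1.63 ± 0.48 (log2, adjusted p = 0.0201). It was not called when EZ replicate 1 (adjusted p = 0.0718), EZ replicate 2 (0.0726), DZ replicate 2 (0.0681) or DZ replicate 3 (0.0562) was left out. Without EZ replicate 3 it was 2.25 (adjusted p = 0.00018), and LHCB4.1 was then called lower in EZ than in MZ (-1.05, adjusted p = 0.0104), against -0.43 ± 0.48 with all libraries (adjusted p = 0.46). DZ was above MZ by 1.2 ± 0.48 (adjusted p = 0.044), a call lost when any single MZ or DZ library was left out (adjusted p = 0.0511 to 0.124).

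LHCB6 (AT1G15820, chr1:5446462-5447880, minus strand) had no dip in EZ. Its levels were 7.89, 6.35 and 7.22 RPKM in MZ, 7.06, 8.53 and 27.5 in EZ, and 14.4, 24.3 and 26.1 in DZ. EZ replicates 1 and 2 were within or just above the MZ range, and EZ replicate 3 was the highest of the 9 libraries, so EZ overlapped both other zones. The change from EZ to DZ, 0.76 ± 0.45 on the log2 scale, was not called (adjusted p = 0.184). Without EZ replicate 3 it was a rise of 1.32 (adjusted p = 0.00277). DZ was above MZ by 1.43 ± 0.45 (adjusted p = 0.0159), a call lost without DZ replicate 2 (adjusted p = 0.0508) or DZ replicate 3 (0.052). The gene shares 103 bases with AT1G15810 on the other strand, which stood in the opposite order, at 53.6 to 62.5 RPKM in MZ and 8.85 to 15.8 in DZ. LHCB6 also shares 358 bases with AT1G05207 on that strand, for which no values are listed. The part of reads of either gene in LHCB6 was not tested.

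LHCB2.1 (AT2G05100, chr2:1822990-1824480, minus strand), a main trimer protein in leaves, was at or near 0 throughout. It was listed at 0, 0 and 0.0937 RPKM in MZ, 0, 0.085 and 0.0819 in EZ, and 0, 0.486 and 0.191 in DZ. The highest library was DZ replicate 2, and the zones overlapped. The gene did not pass the filter, and a fit without a filter gave a log2 change from EZ to DZ of 0.20 ± 0.13 (adjusted p = 0.265). Its coding sequence is 96.6% identical to that of LHCB2.2, so the split of reads between them is uncertain. LHCB2.2 and LHCB2.3 were at most 0.196 RPKM in any library.

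GLK2, the more abundant of the regulators, and GLK1 were both higher in DZ than in MZ. GLK2 (AT5G44190, chr5:17798262-17800926, plus strand) stood at 2.12, 3.03 and 4.03 RPKM in MZ, 3.77, 3.72 and 13.5 in EZ, and 10.2, 13.4 and 14.4 in DZ. EZ replicates 1 and 2 lay within the MZ range, and EZ replicate 3 lay within that of DZ. DZ exceeded MZ by 1.76 ± 0.43 on the log2 scale (adjusted p = 0.00452). The change from EZ to DZ, 0.98 ± 0.43, was not called (adjusted p = 0.0868), but without EZ replicate 3 it was a rise of 1.51 (adjusted p = 0.00116).

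GLK1 (AT2G20570, chr2:8855302-8857758, plus strand) was listed at 0, 0.0915 and 0.0888 RPKM in MZ, at 0, 0.0805 and 0.31 in EZ, and at 0.828, 1.1 and 2.17 in DZ. In whole reads this came to 0, 4 and 3 in MZ, 0, 3 and 12 in EZ, and 10, 43 and 72 in DZ. Every DZ library lay above every other library, and MZ and EZ overlapped. GLK1 reached 1 RPKM in 2 libraries and so was not among the genes tested. In the fit without a filter its log2 change was 1.03 ± 0.20 from EZ to DZ (adjusted p = 0.00466), 1.12 from MZ to DZ (adjusted p = 0.00137) and 0.08 from MZ to EZ (adjusted p = 0.79). The coding sequences of GLK1 and GLK2 are 57.6% identical.

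Counted over the comparisons, 6 of the 10 genes were called higher in DZ than in EZ (adjusted p under 0.05 and at least 2-fold), 0 lower, 2 were not called and 2 were not tested. Of the 19640 genes tested, 19.6% were called higher and 16.4% lower in this comparison. From MZ to DZ, 6 were called higher, beside 29.8% of all genes tested, with LHCA1 (0.50 ± 0.26, adjusted p = 0.101) and LHCA4 (0.53 ± 0.38, adjusted p = 0.228) not called. From MZ to EZ, LHCA4 was called lower, beside 20.4% of all genes tested, and 0 were called higher by limma, beside 18.3%, also 0 at an unadjusted p under 0.05. When single libraries were left out, these counts were 4 to 8 from EZ to DZ, 3 to 6 from MZ to DZ (3 without DZ replicate 2 or DZ replicate 3) and 0 to 4 from MZ to EZ (0 without MZ replicate 1 or EZ replicate 2, 2 without MZ replicate 3 and 4 without EZ replicate 3). The comparisons share libraries and are not independent. LHCA2 passed the filter only through DZ, so the shares of tested genes are descriptions. Over all 10 genes without a filter, every DZ library was above every EZ library for 7, against 25.6% of 25488 genes above 0 in any library, and above every MZ library for 7, against 34.3%. Every EZ library was below every MZ library for 3, against 28.8%. The median log2 change of the 8 tested genes was -0.31 from MZ to EZ, beside 0.03 over all genes, and 1.78 from EZ to DZ, beside -0.13.

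**Figure D2:**
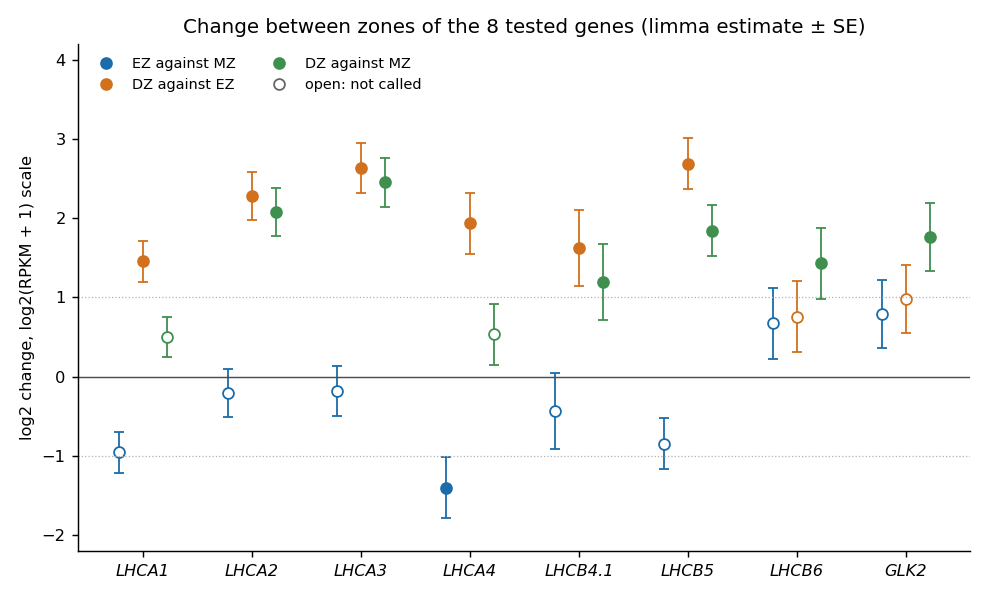
Log2 change ± standard error (limma, log2(RPKM + 1) scale) of the 8 tested genes between the zones, with filled points for calls, open points for changes not called and dotted lines at 2-fold. From EZ to DZ the called changes run from 1.46 (LHCA1) to 2.69 (LHCB5), and LHCB6 and GLK2 are open at 0.76 and 0.98.

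The shapes of the genes across the 9 libraries are given as Pearson correlations of log2(RPKM + 1), which describe libraries sharing zones and depth. Differences between correlations were not tested, and none was computed without EZ replicate 3. LHCB6 followed GLK2 most closely (r = 0.95), and LHCA3 followed LHCB5 (r = 0.96). LHCA1 and LHCA4 resembled each other (r = 0.86) and were further from GLK2 (r = 0.34 and 0.28), while LHCA1 was closer to LHCB5 (r = 0.90) than to LHCA4. All 28 pairs were between 0.28 and 0.96. In EZ replicate 3 GLK2 and LHCB6 were at 94.1% and 100% of their highest library, LHCB4.1 at 61.6%, LHCA1 and LHCA4 at 23.9% and 27.9%, and LHCA3 and LHCB5 at 14.0% and 12.7%.

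**Figure D3:**
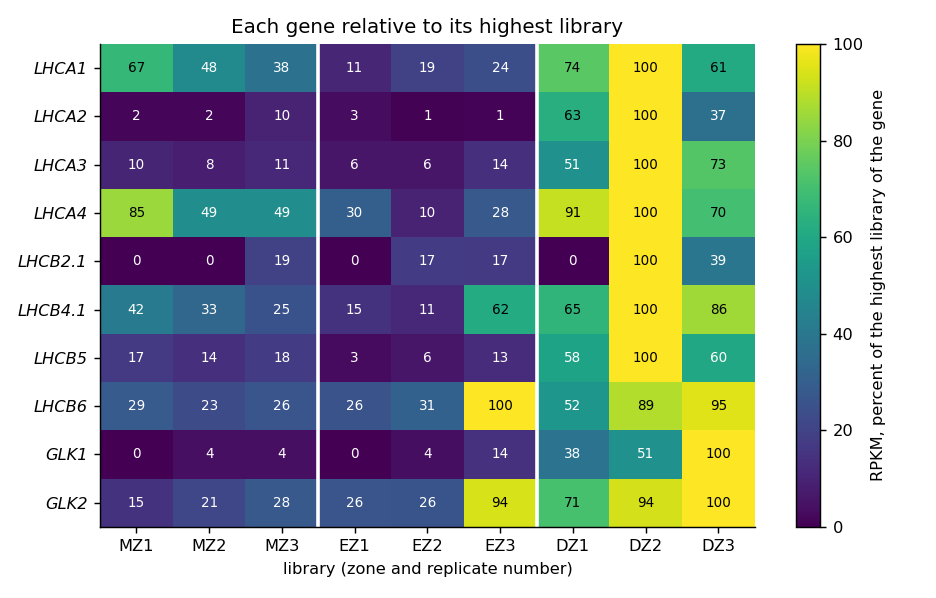
RPKM of each of the 10 genes in the 9 libraries as a percent of its highest library (colour and printed value). LHCB6 (100%) and GLK2 (94.1%) are near their maximum in EZ replicate 3, where LHCA1 and LHCA4 are at 23.9% and 27.9%.

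Outside the 10 genes, those most like the mean profile of the 7 tested antenna genes over the 9 libraries were LYC (AT3G10230, lycopene cyclase of carotenoid synthesis, r = 0.998), TIC55-II (AT2G24820, r = 0.990), PSBP1 (AT1G06680, of the oxygen-evolving complex, r = 0.990), AT5G06280 (r = 0.983) and CP12-1 (AT2G47400, a regulator of the Calvin cycle, r = 0.982). LYC stood at 5.45 to 7.47 RPKM in MZ, 3.12 to 7.28 in EZ and 14.8 to 20.9 in DZ. It thus had both the dip in EZ replicates 1 and 2 and the high DZ level. TIC55-II reached 1 RPKM in DZ libraries alone, so it had to be high there to be tested and its likeness is a description. The genes most like GLK2 were CIPK5 (AT5G10930, a protein kinase, r = 0.992), UPM1 (AT5G40850, of siroheme synthesis, r = 0.987), PMSR4 (AT4G25130, a methionine sulfoxide reductase, r = 0.987), JLO (AT4G00220, a LOB-domain factor, r = 0.986) and AT2G32160 (r = 0.985). CIPK5 was at 12.4 to 16.7 RPKM in MZ and 52.8 to 69.6 in DZ, with 59.8 in EZ replicate 3 against 17.8 and 18.0 in replicates 1 and 2. JLO and AT2G32160 reached 1 RPKM only in DZ and in EZ replicate 3, where GLK2 was high, so their likeness is a description too.

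The remaining antenna family was uneven. Of 13 other light-harvesting genes, 7 were tested, and 5 rose from EZ to DZ, with a median of 2.03. LHCB1.3, a trimer protein, stood at 0.501, 0.816 and 2.05 RPKM in EZ and at 13.6, 24.4 and 16.9 in DZ. LHCB1.5 went from 2.13, 1.77 and 12.5 RPKM to 39.3, 52.8 and 24.8, and it alone of the 7 also rose from MZ to EZ (1.71 ± 0.58, adjusted p = 0.0329). Without EZ replicate 3 that step was 0.98, under 2-fold, and it was not called without MZ replicate 1 (adjusted p = 0.0774), MZ replicate 2 (0.101) or MZ replicate 3 (0.0524). LHCB1.3 and LHCB1.5 had rises of 3.21 ± 0.42 (adjusted p = 0.000474) and 2.97 ± 0.58 (adjusted p = 0.00313) from EZ to DZ. LHCB1.1, LHCB1.2 and LHCB1.4 stayed at or below 0.363 RPKM in DZ. The 5 LHCB1 copies are 86.8% to 96.4% identical in coding sequence, so the split of reads among them is uncertain. LHCB4.3, a relative of LHCB4.1 at 65.7% identity, rose by 2.12 ± 0.16 (adjusted p = 5.9e-05), from 0.115 to 0.374 RPKM in EZ to 3.84 to 5.23 in DZ. It reached the filter level of 1 RPKM in DZ libraries alone, so it had to differ and its change is a description.

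RNA of most nuclear genes of the photosystem cores, which the antenna serves, also rose from EZ to DZ. Of 12 nuclear genes of the photosystem I core, 10 rose, 0 fell and the median log2 change was 2.73. PSAO rose by 4.12 ± 0.50 (adjusted p = 0.000351), from 0.421, 0.152 and 2.72 RPKM in EZ to 22.3, 34.5 and 37.4 in DZ, and PSAK and PSAF rose by 3.69 and 3.61. PSAD2, the second copy of a stromal subunit, did not follow (-0.62 ± 0.27, adjusted p = 0.0845), while PSAD1 went from 1.66, 1.75 and 10.1 RPKM to 26.0, 36.7 and 48.8. Of 11 nuclear genes of the photosystem II core, 10 rose and the median was 2.82, with the largest change in PSBR (4.19 ± 0.56, adjusted p = 0.000499), from 4.89, 3.47 and 22.4 RPKM to 113, 163 and 200. From MZ to EZ, limma called 0 of the 12 photosystem I genes, with 1 higher and 1 lower at an unadjusted p under 0.05, and 1 of the 11 photosystem II genes higher, PSBY (1.17 ± 0.36, adjusted p = 0.0227). The PSBY call was lost without MZ replicate 1 (adjusted p = 0.0681) or MZ replicate 2 (0.069), and without EZ replicate 3 its change was 0.72. Of the genes that rose from EZ to DZ, 2 of photosystem I (PSAE1 and PSAH1) and 1 of photosystem II (PSBQ2) reached 1 RPKM in DZ libraries alone and had to differ. The CCAATC motif was in the window of 0 of the 12 photosystem I core genes, 2 of the 11 of photosystem II, 5 of the 13 other light-harvesting genes and 3 of 8 leaf-type genes of electron transfer.

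Genes of chlorophyll synthesis were divided. Of 18 genes of chlorophyll synthesis, 16 were tested, and from EZ to DZ 6 rose and 1 fell, with a median of 0.63. CRD1, the cyclase of the chlorophyll ring, rose by 3.04 ± 0.38 (adjusted p = 0.000393), and CHLH, a subunit of magnesium chelatase, by 1.88 ± 0.48 (adjusted p = 0.0109). HEMA1, the first committed enzyme of the pathway, rose already from MZ to EZ, from 7.59, 7.54 and 7.48 RPKM to 24.0, 26.5 and 30.6 (1.71 ± 0.14, adjusted p = 0.000393). FLU, a repressor of that enzyme, fell in the same step by 1.13 ± 0.37 (adjusted p = 0.0288), from 38.2 to 49.8 RPKM in MZ to 11.8 to 27.5 in EZ. The FLU call was lost when any single MZ library (adjusted p = 0.0522 to 0.0904) or EZ replicate 3 (0.0797) was left out.

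No gene of the route by which antenna proteins enter the thylakoid was called from EZ to DZ. Limma called 0 of its 5 genes, also 0 at an unadjusted p under 0.05, and their changes were between 0.25 and 0.47 with a median of 0.38. Every DZ library was above every EZ library for 3 of the 5 and below for 0, beside 25.6% of genes above. LTD, a protein that targets antenna proteins to the membrane, stood in DZ above MZ by 0.88 ± 0.19 (adjusted p = 0.00215), under 2-fold. From MZ to EZ 2 fell. CPSRP43, the chaperone subunit that carries antenna proteins to the membrane, went from 13.8, 12.6 and 9.15 RPKM in MZ to 3.53, 2.48 and 1.13 in EZ and 2.88, 3.76 and 2.99 in DZ. Its fall from MZ to EZ was 1.97 ± 0.30 (log2 change -1.97, adjusted p = 0.00131), and DZ stayed below MZ (-1.60 ± 0.30, adjusted p = 0.00103). CPSRP54, its partner, fell by 1.1 ± 0.26 from MZ to EZ (adjusted p = 0.0077), a call that was lost without EZ replicate 2 or EZ replicate 3, where the change was just under 2-fold (-0.996 and -0.999).

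Some stress-related relatives of the antenna rose already from MZ to EZ. Of 5 such genes, 3 rose from MZ to EZ, with a median of 2.0, and 1, OHP1, from EZ to DZ. The OHP1 call was lost without EZ replicate 1 (adjusted p = 0.0587), EZ replicate 2 (0.0556), DZ replicate 2 (0.0513) or DZ replicate 3 (0.0605). ELIP1, an early light-induced protein, stood at 31.2, 22.9 and 77.3 RPKM in MZ, 148, 97.7 and 260 in EZ, and 211, 149 and 339 in DZ, a rise of 2.0 ± 0.52 from MZ to EZ (adjusted p = 0.0109). OHP2, which helps assemble photosystem II, rose by 2.07 ± 0.36 (adjusted p = 0.0021). PSBS, the sensor of excess light in photosystem II, rose by 2.42 ± 0.75 (adjusted p = 0.0233) to 2.83, 2.5 and 25.8 RPKM in EZ, where replicate 3 held most of it. Its call was lost without MZ replicate 1 (adjusted p = 0.0702) or MZ replicate 2 (0.0749). Whether these steps differ from those of the antenna genes was not tested.

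Other regulators of light response and greening were mixed. Of 22 genes, 18 were tested. From MZ to EZ 4 rose and 2 fell (median 0.41), beside 18.3% called higher and 20.4% lower of all genes tested. From EZ to DZ 3 rose, GUN1, SIG5 and PIF3 (median 0.10), beside 19.6% of all genes tested. The counts that rose are near these shares and do not set the list apart. HYH, the close relative of HY5, rose from MZ to EZ (2.11 ± 0.56, adjusted p = 0.0125), at 10.4, 7.58 and 30.9 RPKM in MZ, 59.2, 32.7 and 122 in EZ, and 170, 133 and 209 in DZ. Every DZ library of HYH was above every EZ library, and that step was 1.43 ± 0.56 (adjusted p = 0.0616), not called. SIG5, a factor of plastid transcription, rose in both steps, by 1.81 ± 0.30 (adjusted p = 0.00189) and 1.1 ± 0.30 (adjusted p = 0.0153). The latter step of SIG5 was not called without EZ replicate 1 (adjusted p = 0.0571), EZ replicate 2 (0.0589) or DZ replicate 3 (0.0587). GUN1 was under 2-fold without DZ replicate 2 (0.96), and PIF3 without EZ replicate 2 (0.97) or DZ replicate 1 (0.93). SIG6, another such factor, fell from MZ to EZ by 1.80 ± 0.27 (adjusted p = 0.00124). PIF4 was listed at 0 in every library.

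**Figure D4:**
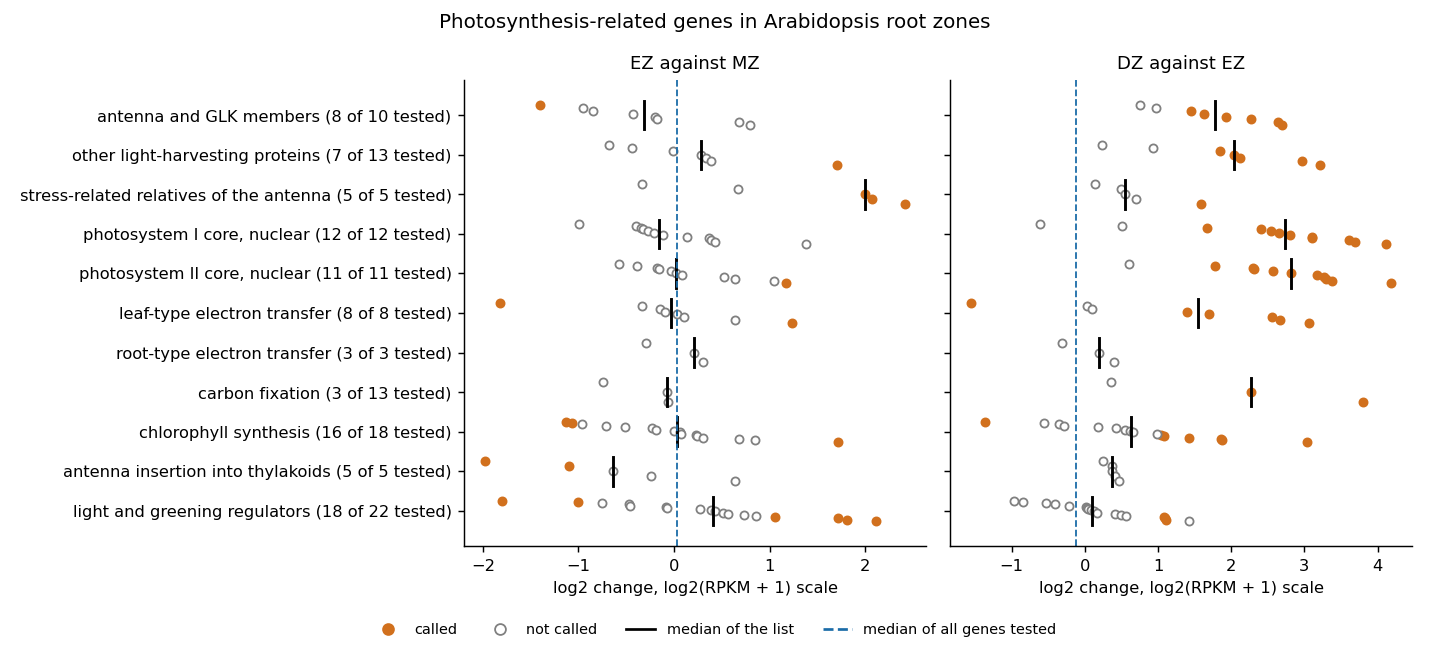
Log2 change (limma, log2(RPKM + 1) scale) of each tested gene of 11 lists from MZ to EZ (left) and from EZ to DZ (right), with filled points for calls, black bars at the list median and a dashed line at the median of all genes tested. From EZ to DZ the medians of the photosystem I and II core lists are 2.73 and 2.82, that of the antenna and GLK genes is 1.78, and that of the insertion list is 0.38.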

How the data were processed

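The authors deposited RPKM values, 1 column per zone and replicate number, and the unit is named by the file. Per the labels, reads were mapped with Ensembl release 19 for TAIR10, and the submitters' processing notes name FastQC and TopHat2. The sources used here give no versions, counting tool, gene lengths or strandedness. A second deposited table, which joins zones, was not used. The members and gene lists were chosen with earlier results of these data known. All 10 members are named, and of each other list its counts, its median and up to 3 called genes of largest change per comparison, with the 5 genes closest in profile to the antenna mean and to GLK2. Genes named beyond that were chosen after their values were seen. Tests used limma 3.58.1 (R 4.3.3) on log2(RPKM + 1), which understates changes of low genes. The 9 libraries entered 1 fit by zone, with trended, robust eBayes and two-sided tests, over 19640 genes that reached 1 RPKM in 3 or more libraries. P-values were adjusted by Benjamini-Hochberg within a comparison, and calls needed an adjusted p under 0.05 and a 2-fold change. They measure the spread between these libraries. The fit was tested on simulated data. Depth and whole reads were recovered from steps in low values, with whole numbers accepted within 0.02, using reference gene lengths. The depth scale rests on 215 genes, with a median of 6.38 M reads for MZ replicate 1 and quartiles of 5.23 and 7.36 M. Confidence intervals were not computed. Under quantile normalization the median over all genes shifted by -0.06 to -0.09. Promoter windows come from the TAIR10.1 genome, read with Biopython 1.88. Python 3.11.15, pandas 2.3.3, NumPy 2.4.6 and matplotlib 3.10.9 were used.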

Additional observations from a re-analysis of the deposited data

How the results depend on the processing

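Over 19 alternatives, 388 values of the tested members kept their direction and side of the threshold, 16 gained a call, 27 lost it and 1 turned, the LHCA2 change from MZ to EZ (-0.20), which was 0.0011 without MZ replicate 3 and -0.31 without MZ replicate 2. The count of members lower in EZ than in MZ (1) was 3 with a pseudocount of 0.1 or 0.5, 2 with quantile normalization, 0 without the libraries numbered 1 or those numbered 2, 4 without those numbered 3, and 0 to 4 without single libraries. The count higher in DZ than in EZ (6) was 3 without the libraries numbered 2 and 4 to 8 without single libraries. The count higher in DZ than in MZ (6) was 2 without the libraries numbered 2 and 3 to 6 without single libraries (3 without DZ replicate 2 or DZ replicate 3). Over all genes, those lower in EZ than in MZ (4009) were 1124 without the libraries numbered 2. Those higher in DZ than in EZ (3857) were 2352 without the libraries numbered 1 and 1727 without those numbered 2, and those lower (3213) were 1404 without those numbered 2. These settings leave 2 libraries per zone. LHCB4.1 in DZ against MZ (adjusted p = 0.044) lost its call in 12 alternatives. Same-numbered libraries deviated together with correlations of 0.088 to 0.458, all positive. The main fit did not take the numbers as pairs, and whether they mark pairs is not known from the sources used here. With a replicate block, 5 members were higher in DZ than in MZ, LHCB4.1 being lost (adjusted p = 0.0595), and no other member's call changed. Depth limits LHCB2.1, GLK1 and LHCA2 most, since they rest on few reads.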

Other observations

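Genes of carbon fixation were mostly low in the root, also in DZ. Of 13 genes of carbon fixation, 8 were below 1 RPKM in every DZ library, and only 3 were tested, of which 2 rose from EZ to DZ. RCA, the activase of Rubisco, went from 0.517, 0.773 and 0.695 RPKM in EZ to 14.5, 32.5 and 23.0 in DZ (3.81 ± 0.30, adjusted p = 6.3e-05), and RBCS1A from 0.129, 0.842 and 1.89 to 5.34, 14.2 and 6.03 (2.27 ± 0.76, adjusted p = 0.0338). The RBCS1A call was lost without EZ replicate 1 (adjusted p = 0.11), EZ replicate 2 (0.0804), DZ replicate 2 (0.113) or DZ replicate 3 (0.0626). RBCS1B, RBCS2B and RBCS3B were at or below 0.372 RPKM in DZ, with reads hard to split among them, since they are 96.7% to 97.3% identical in coding sequence.

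Electron carriers were mixed. Of 8 leaf-type genes of electron transfer, 5 rose and 1 fell from EZ to DZ. Plastocyanin PETE2 rose from 1.15, 2.03 and 9.84 RPKM in EZ to 23.5, 42.8 and 38.0 in DZ (3.07 ± 0.55, adjusted p = 0.00206). The other plastocyanin gene, PETE1, was highest in EZ, at 2.54, 2.57 and 1.14 RPKM, and was listed at 0, 0 and 0.0738 in DZ (-1.55 ± 0.27, adjusted p = 0.00178). PETE1 reached 1 RPKM in EZ libraries alone, and PETC, 1 of the 5 that rose, in DZ libraries alone, so both had to differ and their changes are descriptions. Of 3 root-type genes limma called 0 from EZ to DZ, also 0 at an unadjusted p under 0.05. Every DZ library was above every EZ library for 2 of the 3 and below for 1, beside 25.6% of genes above. The root ferredoxin FD3 was at 357 to 495 RPKM in all 9 libraries.

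MZ replicate 3 held more RNA of carbon fixation genes than the other MZ libraries, with a summed level of the 13 genes of 19.2 RPKM against 4.17 and 3.05. Its summed level of shoot markers was the lowest of MZ, at 1.72 RPKM against 2.2 and 2.03. These low sums rest in large part on TMM, the only shoot marker to pass 1 RPKM, so they cannot show how much shoot tissue a library held. Without MZ replicate 3, LHCB4.1 lost its limma call from MZ to DZ (adjusted p = 0.124), as it did without any other single MZ or DZ library. LHCA1 was then called lower from MZ to EZ (-1.10, adjusted p = 0.0174), as it also was without EZ replicate 3 (-1.08, adjusted p = 0.0116). Whether these calls have to do with the carbon fixation RNA was not tested.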
